A study of Mus musculus with 7 samples.

Results

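The data were single-cell RNA counts from cultured mouse hippocampus, and 7 genes for subunits of the GABA-A receptor were followed through them: the alpha subunits Gabra2, Gabra3, Gabra4 and Gabra5, the beta subunits Gabrb1 and Gabrb2, and the delta subunit Gabrd. They were taken by gene symbol, with no threshold on their values, from the 31053 genes of the deposited matrices. The choice of these genes was made with earlier results of these data known. Some other subunits of the receptor enter only as part of a list of GABA signalling genes. Hippocampi of newborn (P0) mice were dissociated with trypsin, plated on poly-D-lysine and kept in serum-containing medium with B-27, and cells were taken after 1, 3, 5 and 7 days in vitro (DIV1 to DIV7) for droplet sequencing of 3' ends (10x Genomics, version 2 chemistry). There was 1 library at DIV1 and there were 2 libraries, replicates 1 and 2, at each of DIV3, DIV5 and DIV7. No group carried a treatment or an allele, by the labels the groups differed in days in culture, and strain and sex are not given in the labels used here.

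The GABA-A receptor is a chloride channel built from 5 subunits and opened by the transmitter GABA. The alpha subunit sets much of the affinity for GABA and the response to benzodiazepines, the beta subunit completes the GABA site and is needed for assembly, and delta takes part in receptors outside the synapse that respond to ambient GABA. In the hippocampus Gabra2 is known from perisomatic and axon-initial-segment synapses, Gabra5 from extrasynaptic receptors of pyramidal cells, Gabra4 from extrasynaptic receptors of dentate granule cells, where its common partner is Gabrd, and Gabra3 from immature neurons.

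Barcodes were kept where 500 genes or more were detected and mitochondrial counts made up no more than 10%, which left 26709 cells of 28846 barcodes. Counts of unique molecular identifiers (UMIs) per library summed to between 36226566 (DIV1) and 114119537 (DIV3 replicate 1), and DIV3 replicate 1 also had the highest median per kept cell, 20267 UMIs against 7142 to 14294 in the other libraries (the DIV1 library was lowest). DIV7 replicate 1 lost 576 barcodes to the mitochondrial limit, the most of any library, and 401 barcode sequences occurred in more than 1 library. Cells were clustered without any GABA-A subunit gene, and clusters were called by marker lists. Granule neuron-like cells numbered 2004, pyramidal neuron-like cells 3204, GABAergic neuron-like cells 471 and astrocyte-like cells 2975.

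The 3 neuron classes and the astrocyte-like class were checked against their defining markers. Prox1, the transcription factor of dentate granule cells, stood at 368 to 546 CPM (UMIs of the gene per 1e+06 UMIs of the class) in the granule neuron-like sums of the 7 libraries and at 8.09 to 40.5 CPM in the pyramidal ones. Neurod6, a pyramidal marker, reached 436 to 574 CPM in the pyramidal sums and 53.4 to 122 CPM in the granule sums. Gad1 and Gad2, which make GABA, stood at 302 to 614 and 214 to 568 CPM in the GABAergic class, a single cluster led by Sst, Npy and Gad2. In the granule class Gad1 stood at 7.76 to 29.8 CPM and Gad2 stayed at or below 1.83 CPM. The GABAergic sums also held Neurod6, from 173 CPM at DIV1 and 70.5 and 38.2 CPM at DIV3 down to 1.69 to 9.91 CPM in the later libraries, and Sst at 36.6 to 3454 CPM. The part of pyramidal RNA in the GABAergic values was not tested. Astrocyte-like cells had 1679 to 3117 CPM of the water channel Aqp4. The clusters behind a class changed with time. Of the granule clusters, cluster 3 held 409 of 521 cells at DIV1. Cluster 11 held 82.1% and 67.8% of granule cells in replicates 1 and 2 of DIV5. At DIV7 it held 155 of 159 cells in replicate 1 and 22 of 36 in replicate 2. Among pyramidal clusters, cluster 2 was mostly DIV1 cells (88.8%), cluster 15 mostly DIV3 replicate 1 cells (70.5%), and cluster 18 held most of the later ones. The part of cluster makeup in the subunit changes with day and in the replicate differences was not tested.

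Start-site windows of the 4 subunits that carry most of the results are shown first, because the Gabra5 and Gabra2 shares of granule neuron-like cells shifted with day and because Gabra4 and Gabrb1, whose levels moved together across cell classes, begin 387 bases apart on chromosome 5. Each is 300 bases of RefSeq promoter sequence on GRCm38.p6, 250 before and 50 from the annotated start, read 5' to 3' on the gene's strand. The windows are chr7:57510010-57510309 (minus strand) for Gabra5, chr5:71095800-71096099 (minus) for Gabra2, chr5:71658259-71658558 (minus) for Gabra4 and chr5:71657671-71657970 (plus) for the first of 2 Gabrb1 starts. Capitals mark matches to CAGATG, an E-box of the kind bound by neuronal basic helix-loop-helix factors, or to GGGCGG, the GC box, on either strand.
Gabra5: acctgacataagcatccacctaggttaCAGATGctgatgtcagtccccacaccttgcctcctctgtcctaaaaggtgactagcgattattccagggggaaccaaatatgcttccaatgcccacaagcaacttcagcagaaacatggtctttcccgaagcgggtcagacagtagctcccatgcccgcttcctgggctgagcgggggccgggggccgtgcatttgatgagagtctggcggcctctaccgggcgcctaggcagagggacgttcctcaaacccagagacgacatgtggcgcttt
Gabra2: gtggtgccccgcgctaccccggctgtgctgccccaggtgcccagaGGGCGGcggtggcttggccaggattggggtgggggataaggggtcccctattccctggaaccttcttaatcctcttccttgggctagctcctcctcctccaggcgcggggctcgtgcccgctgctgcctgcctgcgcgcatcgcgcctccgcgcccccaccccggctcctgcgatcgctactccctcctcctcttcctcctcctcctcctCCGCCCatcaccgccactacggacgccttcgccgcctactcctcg
Gabra4: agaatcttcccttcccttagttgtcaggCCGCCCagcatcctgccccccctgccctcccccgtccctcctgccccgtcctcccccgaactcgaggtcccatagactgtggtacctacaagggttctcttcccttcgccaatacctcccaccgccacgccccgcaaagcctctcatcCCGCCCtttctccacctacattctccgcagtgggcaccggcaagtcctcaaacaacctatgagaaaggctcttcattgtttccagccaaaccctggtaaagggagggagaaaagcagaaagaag
Gabrb1: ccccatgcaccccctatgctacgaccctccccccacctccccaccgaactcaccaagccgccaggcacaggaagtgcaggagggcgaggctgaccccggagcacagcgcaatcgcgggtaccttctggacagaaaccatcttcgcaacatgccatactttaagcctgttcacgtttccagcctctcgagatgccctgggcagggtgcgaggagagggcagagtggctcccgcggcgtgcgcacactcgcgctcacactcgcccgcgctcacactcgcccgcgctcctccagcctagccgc

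The Gabra5 window held 1 CAGATG match, 223 bases before the start, and no GGGCGG. Gabra2 and Gabra4 each held 2 GGGCGG matches and no CAGATG, and the Gabrb1 window held neither. Across 32851 RefSeq promoter windows of the same length, 17.2% held CAGATG and 35.7% held GGGCGG, and no window shown here held both. GC content was 70% for Gabra2, 66% for Gabrb1, 58.7% for Gabra4 and 56.7% for Gabra5, against a median of 52.7% (quartiles 45.7% and 61.7%) over all windows. These are descriptions of the letters only. In RefSeq Gabra2, Gabra4 and Gabrb1 lie in one region of chromosome 5 with the gamma subunit gene Gabrg1, while Gabra5 lies on chromosome 7, Gabrb2 on 11, Gabra3 on X and Gabrd on 4. The start of Gabra4 is at 71658308 on the minus strand and the first start of Gabrb1 at 71657921 on the plus strand. By this annotation each gene, read from there, crosses that start of the other. Whether the counting used the strand of the reads is not given in the sources used here.

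Gabra2 was the leading alpha subunit of every neuron class at DIV1. In granule neuron-like cells it stood at 276 CPM at DIV1, at 151 and 164 CPM in replicates 1 and 2 of DIV3, at 119.7 and 241 CPM at DIV5 and at 73.3 and 204 CPM at DIV7. The DIV1 library was the highest and DIV7 replicate 1 the lowest, and the days from DIV3 to DIV7 overlapped. CPM values are a share of each class's RNA, so a change in this gene and a change in the rest of the RNA per cell cannot be told apart.

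In pyramidal neuron-like cells Gabra2 was higher, with 336 CPM at DIV1, 239.5 and 344 at DIV3, then 297 and 378 at DIV5 and 154 and 416 at DIV7. The DIV7 replicates were the lowest and the highest of all 7 libraries. In GABAergic neuron-like cells it stood at 289 CPM at DIV1, 76.1 and 141 at DIV3, then 102 and 178 at DIV5 and 45.7 and 121 at DIV7, with DIV1 above every later library. No fold between days passed the test for Gabra2 in any neuron class. From DIV3 to DIV7 the log2 change was -0.33 ± 0.59 (SE) in granule and -0.05 in pyramidal cells, with adjusted p of 0.83 in the granule sums (edgeR quasi-likelihood test, Benjamini-Hochberg over all genes tested).

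The replicates split for Gabra2 in one direction. Replicate 2 exceeded replicate 1 in 9 of 9 pairs of neuron class and day, and in 36 of 41 pairs over all cell classes. The ratio was 1.08 to 2.78 in granule, 1.27 to 2.71 in pyramidal and 1.75 to 2.66 in GABAergic cells. All classes of a day come from the same 2 libraries, so these pairs are not independent comparisons. There is only 1 pair of libraries at each of DIV3, DIV5 and DIV7. With day kept in the model, the log2 difference was 1.02 ± 0.23 in GABAergic cells (edgeR, Benjamini-Hochberg adjusted p = 0.0266), 0.77 ± 0.21 in granule cells (0.0885) and 0.76 ± 0.22 in pyramidal cells (0.170). So 1 of the 3 tested members passed in the GABAergic sums, where 1.55% of all genes did, and 0 of 4 and 0 of 6 in the granule and pyramidal sums (2 and 1 at an unadjusted p under 0.05, 0 and 0 with DESeq2), where 2.58% and 0.738% of genes did. The GABAergic call was lost without any one of the DIV5 and DIV7 libraries (adjusted p up to 0.221) and with DESeq2 (0.247), the stricter cell filter (0.186) or top doublet scores removed (0.0673). The granule and pyramidal differences passed without either DIV3 library (1.04e-07 or lower in the granule sums, 2.92e-07 or lower in the pyramidal sums) and without a low-count filter (0.00135 and 0.00186), and the pyramidal one also without either DIV5 library (0.0306 or lower). This comparison was added after the values were seen. Among the other members, replicate 2 was higher in 6 of 9 neuron pairs for Gabra4, 6 of 9 for Gabrb1 and 3 of 9 for Gabra5.

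**Figure D1:**
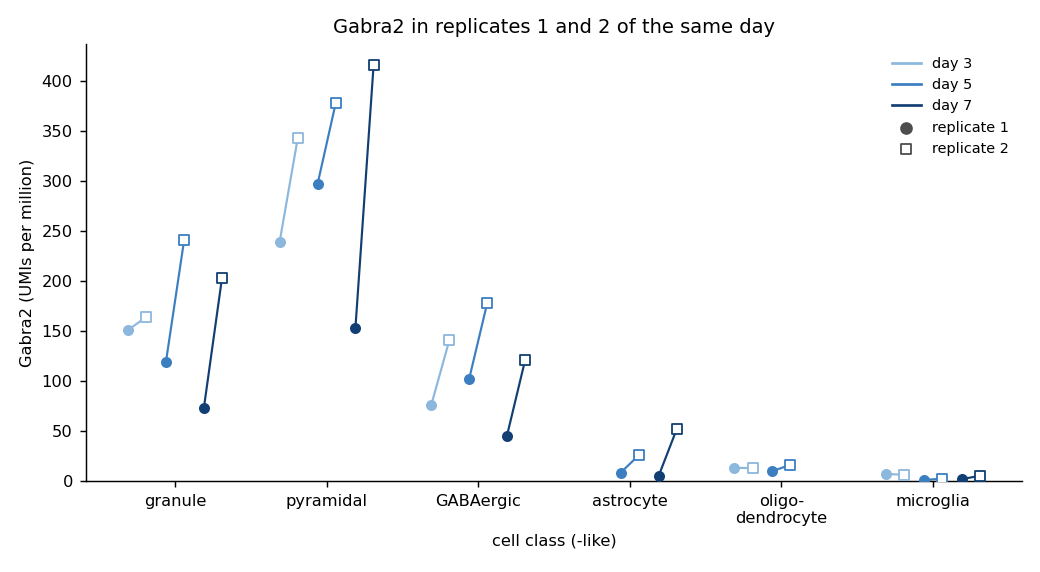
Gabra2 in CPM for replicate 1 and replicate 2 at DIV3, DIV5 and DIV7, with a line joining the replicates of a day. The classes are granule, pyramidal and GABAergic neuron-like cells and astrocyte-like, oligodendrocyte lineage-like and microglia-like cells, where both replicates had enough cells. Replicate 2 lies higher in 9 of 9 neuron pairs, which are not independent, since the classes of a day share 1 pair of libraries. The widest gaps are at DIV7 (73.3 against 204 CPM in granule cells, 154 against 416 in pyramidal cells). At DIV3 it lies slightly lower in oligodendrocyte lineage-like cells (13.2 against 13.5 CPM) and microglia-like cells (6.75 against 7.12 CPM).

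Gabra5 rose with time in granule neuron-like cells. There it stood at 23.0 CPM at DIV1 (95% Poisson interval 17.4 to 29.8, counting error only), 54.4 and 72.7 CPM at DIV3, then 183 and 141 at DIV5 and 228 and 199 at DIV7. Each later day lay above the earlier one with no overlap. The mean was 63.5 ± 12.9 CPM (SD, n = 2) at DIV3 and 213 ± 20.4 CPM at DIV7.

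The log2 change of Gabra5 in granule cells was 1.86 ± 0.26 from DIV3 to DIV7 (edgeR, adjusted p = 1.34e-04) and 1.42 ± 0.25 from DIV3 to DIV5 (0.00283). Gabra5 was 1 of 4 members tested that passed between DIV3 and DIV7, where 4.45% of 10015 genes passed. Of the same 4 members, 2 passed between DIV3 and DIV5, Gabra5 and Gabrb1, against 1.19% of genes. The slope over all 7 libraries was 0.53 ± 0.06 log2 units per day (adjusted p = 6.43e-05), 1 of 4 members against 10.2% of genes. From DIV1 to DIV3 and from DIV5 to DIV7, 0 of the 4 passed, with 0.789% and 0.02% of genes called, 1 and 0 of the 4 at an unadjusted p under 0.05, and 0 in both with DESeq2. The step from DIV1 to DIV3 was 1.37 ± 0.33 (adjusted p = 0.0523) with a single DIV1 library. Since the labels do not say that replicates came from separate cultures or animals, these p-values measure the spread between the libraries, which may be technical. The DIV3-to-DIV5 call was lost without DIV3 replicate 1 (adjusted p = 0.0920), under a stricter cell filter (0.0516) and in cells chosen by a gate on marker UMIs (0.439).

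In pyramidal neuron-like cells Gabra5 also rose. It stood at 41.1 CPM at DIV1, 55.8 and 64.6 at DIV3, then 119 and 74.3 at DIV5 and 154 and 121 at DIV7. The days did not overlap, although DIV5 replicate 1 lay just below DIV7 replicate 2. The log2 change from DIV3 to DIV7 was 1.18 ± 0.25 (edgeR, adjusted p = 0.0152), 1 of 6 members tested against 11.3% of 13174 genes. The slope was 0.30 ± 0.04 per day (0.00122), and with Gabrd 2 of 6 members had one, against 21.1% of genes. The DIV3-to-DIV7 call was lost when DIV3 replicate 1 (0.0597) or either DIV7 library (0.167 and 0.0626) was left out, under the stricter cell filter (0.184) and with the marker gate (0.137). Between DIV3 and DIV5, DIV5 and DIV7, and DIV1 and DIV3, 0 of 6 members passed (2, 0 and 1 at an unadjusted p under 0.05, 0 in each with DESeq2), with 0.714%, 0% and 0.402% of genes called.

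In GABAergic neuron-like cells no change of Gabra5 passed the test. It stood at 74.1 CPM at DIV1, 70.5 and 64.9 at DIV3, then 36.05 and 52.0 at DIV5 and 76.1 and 49.2 at DIV7, and the DIV7 pair spanned most of the range. The log2 change from DIV3 to DIV7 was 0.03 ± 0.38 (edgeR, adjusted p = 0.9753) and the slope -0.03 ± 0.07 per day. For both contrasts 0 of 6 members passed (0 and 3 at an unadjusted p under 0.05, 0 and 0 with DESeq2), where 2.42% and 8.75% of 8425 genes did. For the steps from DIV3 to DIV5, DIV5 to DIV7 and DIV1 to DIV3 it was also 0 of 6 (0, 0 and 3 at an unadjusted p under 0.05, 0 in each with DESeq2), against 0.107%, 0.0237% and 0.095% of genes. This class held 25 to 187 cells in a library, and its sums are the shallowest of the 3 in every library but DIV7 replicate 2. There the granule sum, of 36 cells, held fewer UMIs.

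The slopes were then compared between classes in a fit added after they were seen. For Gabra5 the granule slope exceeded the pyramidal slope by 0.23 ± 0.05 per day (edgeR, adjusted p = 0.00639, 1 of 4 members against 4.02% of genes). The GABAergic slope was the lowest, with a difference of -0.58 ± 0.09 from the granule slope (0.00154) and -0.34 ± 0.07 from the pyramidal slope (0.00377). Without the single DIV1 library none of these 3 passed (adjusted p of 0.103, 0.204 and 0.271), and with the marker gate the GABAergic-to-pyramidal one missed the threshold (0.0576). The DIV3-to-DIV7 change itself was 0.63 ± 0.24 larger in granule than in pyramidal cells, which did not pass (0.105). On that contrast 0 of 6 members passed (1 at an unadjusted p under 0.05, 0 with DESeq2) against 4.7% of genes.

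**Figure D2:**
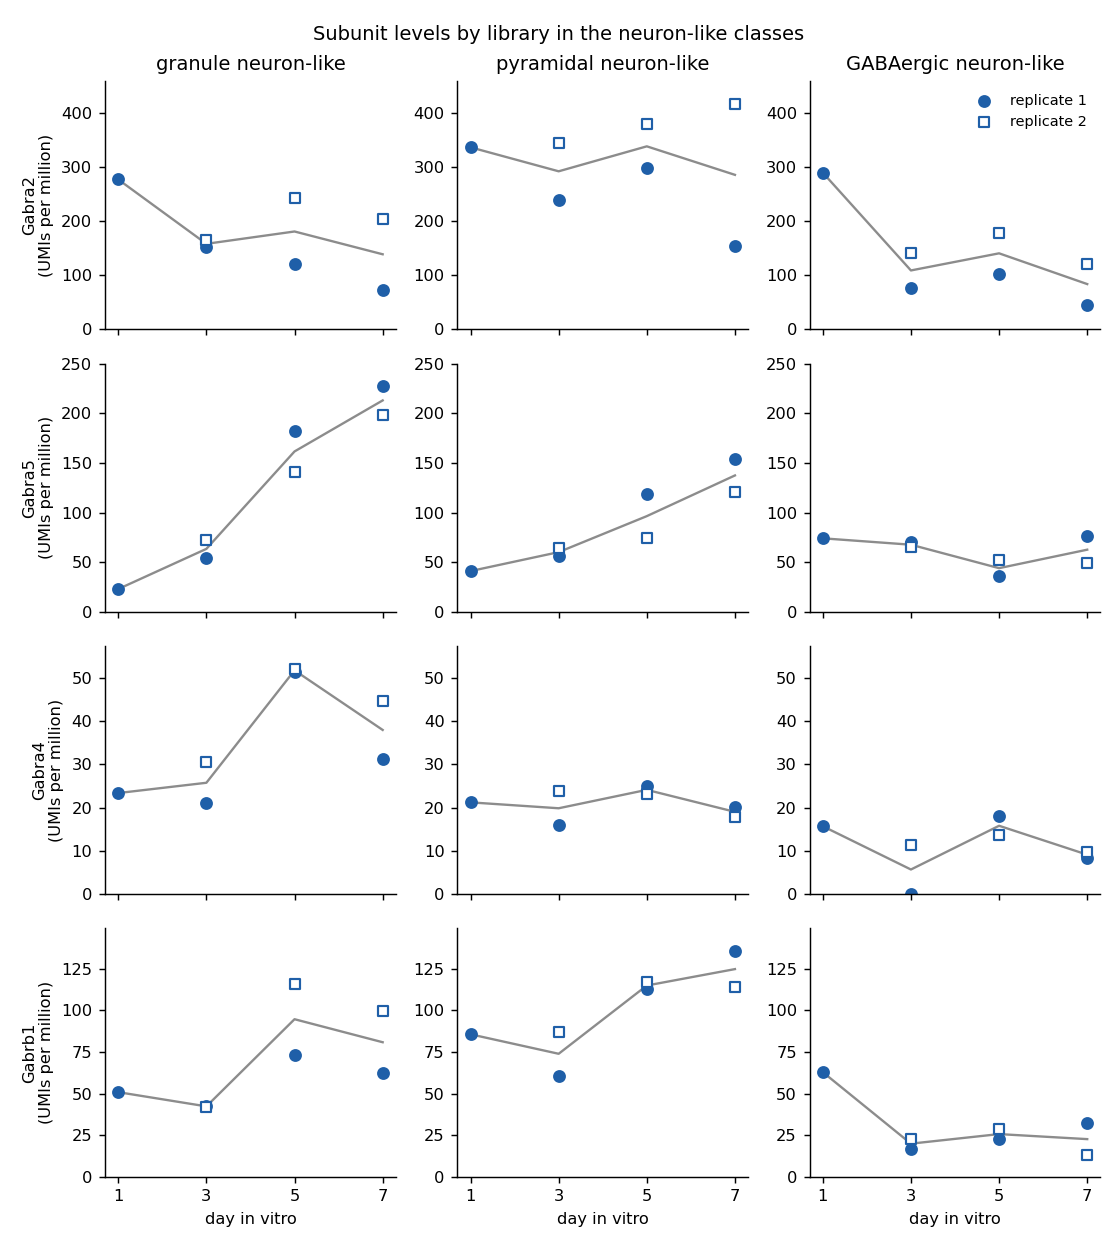
Levels of Gabra2, Gabra5, Gabra4 and Gabrb1 in CPM against days in vitro in granule, pyramidal and GABAergic neuron-like cells, 1 point per library. Granule Gabra5 climbs from 23.0 CPM at DIV1 to 228 and 199 CPM at DIV7, while the GABAergic Gabra5 points stay between 36.05 and 76.1 CPM.

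The makeup of the alpha subunits was measured as the share of the summed Gabra2, Gabra3, Gabra4 and Gabra5 UMIs. These shares compare UMIs counted at 3' ends, without scaling by length, and not protein. In granule neuron-like cells Gabra2 held 85.4% of 789 UMIs at DIV1, 66.6% and 61.4% at DIV3, then 33.7% and 55.5% at DIV5 and 22.1% and 45.6% at DIV7. Gabra5 held 7.10% at DIV1, 23.9% and 27.2% at DIV3, then 51.5% and 32.4% at DIV5 and 68.5% and 44.4% at DIV7. Gabra5 was thus the larger of the pair in DIV5 replicate 1 and DIV7 replicate 1, and just below Gabra2 in DIV7 replicate 2, whose pool was 90 UMIs. The ratio of Gabra5 to Gabra2 UMIs went from 0.0831 at DIV1 to 3.10 and 0.976 at DIV7. Gabra4 held a steadier 7.22% to 14.5%.

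In pyramidal cells the Gabra2 share was 84.0% at DIV1, 76.7% and 79.1% at DIV3, then 67.0% and 78.7% at DIV5 and 46.3% and 74.7% at DIV7. Gabra5 there reached 46.4% in DIV7 replicate 1 and 21.7% in replicate 2, from 10.3% at DIV1. In GABAergic cells Gabra2 held 74.0% at DIV1 and 30% to 67.9% later, and Gabra5 19.0% at DIV1 and 19.8% to 50% later, on pools of only 55 to 212 UMIs after DIV1. Replicate 1 had the lower Gabra2 share at DIV5 and DIV7 in each of the 3 classes.

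Against day, over the 7 libraries, the granule Gabra5 share had Pearson r = 0.895 (exact permutation p = 0.00952, two-sided; 0.0444 after Benjamini-Hochberg over 14 relations) and Spearman rho = 0.899 (adjusted 0.0593). The granule Gabra2 share had r = -0.886 (exact permutation p = 0.00952, adjusted 0.0444). When the 2 libraries lying farthest in time from the median were dropped, r was 0.746 to 0.920 for Gabra5 and -0.909 to -0.682 for Gabra2, over the possible choices of those libraries. The pyramidal shares did not pass, with r = 0.731 for Gabra5 (exact permutation p = 0.0460, adjusted 0.161) and -0.690 for Gabra2 (adjusted 0.178). Neither did the GABAergic ones, with r = 0.272 for Gabra5 (exact permutation, adjusted 0.579) and -0.532 for Gabra2 (adjusted 0.408). Leaving out any 1 library, which leaves 6, took the granule calls to an adjusted p of at least 0.0519.

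**Figure D3:**
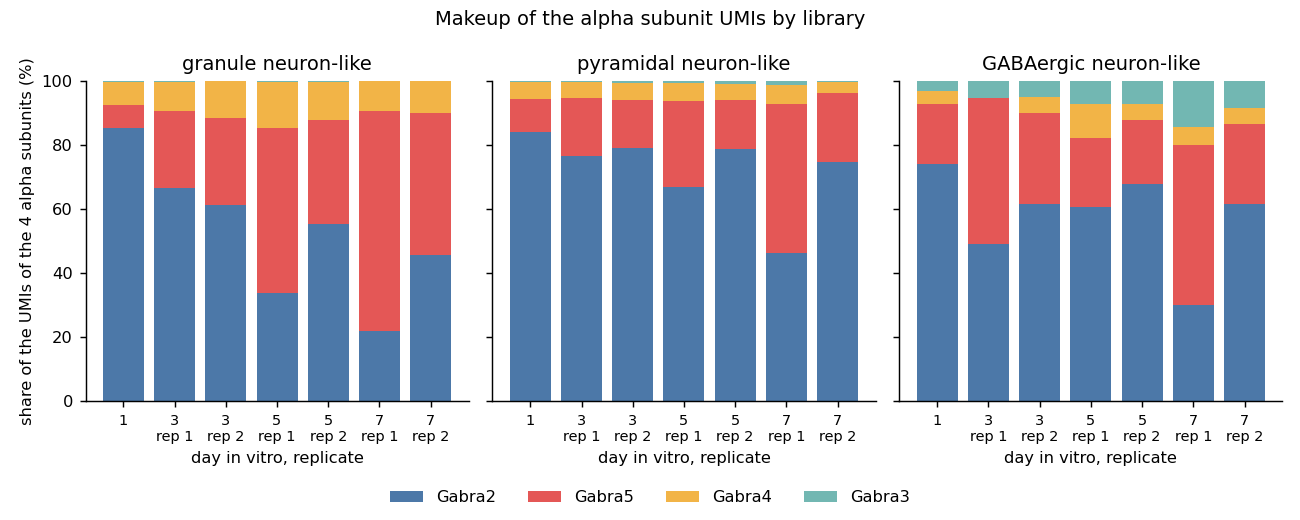
Share in percent of the summed Gabra2, Gabra3, Gabra4 and Gabra5 UMIs held by each subunit, 1 stacked bar per library, for granule, pyramidal and GABAergic neuron-like cells. Gabra2 falls from 85.4% of the granule bar at DIV1 to 22.1% and 45.6% at DIV7, while in pyramidal cells it is still 46.3% and 74.7%.

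Gabra3 was the alpha subunit with the clearest preference for GABAergic neuron-like cells. There it stood at 12.0 CPM at DIV1, 8.46 and 11.5 at DIV3, then 12.0 and 18.6 at DIV5 and 21.99 and 16.4 at DIV7, on 3 to 16 UMIs a library. In pyramidal cells it ranged from 0.962 to 4.61 CPM and in granule cells from 0 to 1.22 CPM. GABAergic cells were above both other classes in 7 of 7 libraries, with 14.4 ± 4.74 CPM (SD, n = 7) against 2.63 ± 1.31 and 0.488 ± 0.508 CPM. The exact sign-flip permutation p was 0.0156 for both, two-sided, the smallest that 7 libraries can give, and 0.0156 after adjustment over the 4 such tests, which were added after the values were seen. The library-blocked edgeR fit, which kept Gabra3 only in the contrast with pyramidal cells, gave a log2 difference of 2.48 ± 0.28 (adjusted p = 4.72e-06). The Gabra3 share of the GABAergic alpha UMIs went from 3.07% at DIV1 through 5.45% and 5.00% at DIV3 and 7.14% and 7.08% at DIV5 to 14.4% and 8.33% at DIV7. Its r with day was 0.853 (exact permutation p = 0.00794, adjusted 0.0444, rho = 0.973), 0.758 to 0.984 without the 2 farthest libraries, and without any 1 library the adjusted p was at least 0.0519. Its level had no called slope.

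Gabra4 was highest at DIV5 in granule cells and had a median of 21.2 CPM in pyramidal cells. Granule sums held 23.4 CPM at DIV1, 21.0 and 30.5 at DIV3, then 51.3 and 52.1 at DIV5 and 31.2 and 44.7 at DIV7, so both DIV5 libraries were above every other one. The step from DIV3 to DIV5 was 1.11 ± 0.30 on the log2 scale (edgeR, adjusted p = 0.0915), and 0.0138 with the replicate number as a block (1.09 ± 0.25), a fit in which 331 genes passed in place of 119 and in which 3 members did, Gabra5, Gabrb1 and Gabra4.

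Pyramidal sums held 15.9 to 25.0 CPM and GABAergic sums 0 to 18.0 CPM. Gabra4 was higher in granule than in pyramidal cells of the same libraries by 0.67 ± 0.15 (edgeR with library as block, adjusted p = 0.00105).

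The other class contrasts were made the same way, on sums of the same libraries. Between granule and pyramidal cells 3 of 4 members tested differed, against 49.8% of all genes: besides Gabra4, Gabra2 was lower in granule cells, with a log2 difference of -0.83 ± 0.12 (adjusted p = 1.03e-05), and so was Gabrb1, with -0.61 ± 0.12 (3.89e-04), while Gabra5 differed by 0.33 ± 0.17 (0.122). Between GABAergic and granule cells 3 of 4 differed, against 34.8% of genes, with Gabra4 at -1.56 ± 0.26, Gabrb1 at -1.14 ± 0.28 and Gabra2 at -0.40 ± 0.12 in GABAergic cells (adjusted p of 1.07e-04, 0.00719 and 0.0146). The last of these, Gabra2, was 0.15 with the marker gate (0.538) and lost its call under the stricter cell filter (0.276). Between GABAergic and pyramidal cells 4 of 5 differed, against 29.5% of genes: Gabra3 was higher, and Gabra2 (-1.22 ± 0.17), Gabrb1 (-1.70 ± 0.24) and Gabra4 (-0.80 ± 0.25, adjusted p = 0.0210) were lower. That last call was lost without DIV5 replicate 2 (0.0530) or DIV7 replicate 1 (0.0509), under the stricter filter (0.122) and with the gate (0.169). Gabra5 missed the threshold in all 3 contrasts, and without the DIV1 library it passed in all 3, at 0.48, -1.28 and -0.73 in the order given (adjusted p of 0.00245, 0.0276 and 0.0184).

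Gabrb1, the main beta subunit among the members, was present in all 3 neuron classes. Granule sums held 50.9 CPM at DIV1, 42.5 and 42.2 at DIV3, then 73.3 and 116 at DIV5 and 62.4 and 99.4 at DIV7, and the DIV3 libraries were the lowest. The step from DIV3 to DIV5 was 1.197 ± 0.287 on the log2 scale (edgeR, adjusted p = 0.0376). It did not pass without the DIV1 library, nor without replicate 1 of DIV3 or of DIV7 or replicate 2 of DIV5 or of DIV7 (0.0640 to 0.444), nor with DESeq2 (0.172), total-count scaling (0.0511), the stricter filter (0.526) or the marker gate (adjusted p of 1).

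From DIV3 to DIV7 the granule change of Gabrb1 was 0.88 ± 0.32 (adjusted p = 0.126), and 0.86 ± 0.25 with the replicate number as a block (0.0261), which brought the called members to 2 while 1078 genes passed in place of 446. Pyramidal sums held 85.7 CPM at DIV1, 60.6 and 87.2 at DIV3, then 113 and 117 at DIV5 and 136 and 114 at DIV7, so every DIV5 and DIV7 library was above the earlier ones. The pyramidal change from DIV3 to DIV7 was 0.74 ± 0.23 (0.0560), and 0.76 ± 0.22 with the block (0.0306), which again made 2 members while 2459 genes passed in place of 1486. The pyramidal slope was 0.13 ± 0.04 per day (0.0543) and 0.19 ± 0.06 with the block, over DIV3 to DIV7 (0.0257). Astrocyte-like cells are rich in Gabrb1, and the summed level of 14 radial glia or astrocyte markers in these neuron sums also moved with day: it was 444 to 630 CPM in granule sums except for 1058 in DIV7 replicate 2, and 757 to 1919 in pyramidal sums, lowest at DIV1 and highest in DIV7 replicate 2, against 21018 to 36304 in the astrocyte-like sums. The part of glial RNA in the neuronal Gabrb1 values was not tested.

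GABAergic sums held 62.9 CPM of Gabrb1 at DIV1 and 13.1 to 32.1 CPM afterwards, with no overlap between DIV1 and the rest. The GABAergic slope was lower than the others, with a difference of -0.32 ± 0.07 per day from pyramidal cells (edgeR, adjusted p = 0.00474) and -0.33 ± 0.09 from granule cells (0.0245). With Gabra5 and Gabra2 (-0.20 ± 0.05 against pyramidal cells, 0.0210), 3 of 5 members differed in slope from pyramidal cells, against 6.31% of genes, and 2 of 4 from granule cells, against 3.66%. Both differences of Gabrb1 and that of Gabra2 were lost without the DIV1 library (0.856, 0.957 and 0.850). The Gabrb1 difference from granule cells was also lost without DIV5 replicate 1 (0.0528), DIV5 replicate 2 (0.0719) or DIV7 replicate 2 (0.0784), and that of Gabra2 without DIV7 replicate 1 (0.0761) or DIV7 replicate 2 (0.0854).

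Gabrb2, the beta subunit of the most common adult receptors, was close to undetected. The granule class held 9 UMIs over 2004 cells, the pyramidal class 50 and the GABAergic class 9, and the highest level in any neuron library was 3.72 CPM. In pyramidal cells it stayed at 0.717 to 1.43 CPM over all 7 libraries with no order by day. Its share of the Gabrb1 and Gabrb2 UMIs was 0.62% to 2.07% in pyramidal and 0% to 3.90% in granule cells, so in these 2 classes a switch from Gabrb1 to Gabrb2 was not detectable in these days at this depth. In GABAergic cells the share was 2.33% at DIV1 (2 of 86 UMIs) and 13.6% and 11.5% at DIV5 (3 of 22 and 3 of 26), with 95% Clopper-Pearson intervals of 0.283% to 8.15%, 2.91% to 34.9% and 2.45% to 30.2% that overlap.

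Gabrd was seen mainly in GABAergic neuron-like cells, with 1.498 CPM at DIV1, 11.3 and 15.3 at DIV3, then 7.21 and 13.6 at DIV5 and 27.1 and 9.84 at DIV7, on 2 to 16 UMIs a library. The DIV1 library was the lowest and DIV7 replicate 1 the highest, and the later days overlapped. GABAergic cells were above granule and pyramidal cells in 7 of 7 libraries, 12.3 ± 7.94 CPM (SD, n = 7) against 0.120 ± 0.319 and 2.22 ± 1.83 (exact sign-flip permutation, p = 0.0156 for both, again the smallest possible). In the granule class, the cells from which this subunit is best known in the adult, a single UMI was counted, in DIV7 replicate 1.

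Pyramidal sums held 0.242 CPM of Gabrd at DIV1, 1.60 and 1.33 at DIV3, then 2.45 and 0.954 at DIV5 and 3.20 and 5.73 at DIV7. The DIV7 libraries were the highest and DIV1 the lowest. The slope was 0.51 ± 0.15 per day (edgeR, adjusted p = 0.0291) and 0.35 with the replicate block, over DIV3 to DIV7 (0.138), and it was also lost without DIV1 (0.152), DIV5 replicate 1 (0.0513), DIV7 replicate 1 (0.0682) or DIV7 replicate 2 (0.121). GABAergic marker genes in the pyramidal sums, 14 in all, totalled 10.8 to 88.2 CPM, against 2153 to 6769 CPM in the GABAergic class.

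Droplets can also catch RNA from outside the cell, and shares of cells were set beside those in microglia-like cells. Of the 3204 pyramidal cells (median 12714 UMIs) 85.9% had a Gabra2 UMI, of the 2004 granule cells (median 5875) 57.3% and of the 471 GABAergic cells (median 8884) 50.5%, against 5.07% of 946 microglia-like cells (median 14091). After thinning each cell to 3000 UMIs these shares were 56.2%, 37.1%, 30.03% and 1.41%. Pyramidal cells were the highest on either scale.

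For Gabra5 the unthinned shares were 44.6% in pyramidal, 31.9% in granule and 32.5% in GABAergic cells and 1.06% in microglia-like cells. The thinned shares were 16.1%, 20.3%, 13.8% and 0% (0 of 854 cells). Granule cells thus moved from the lowest to the highest share once depth was equal. Gabrb1 had thinned shares of 21.2% in pyramidal, 12.9% in granule and 6.27% in GABAergic cells against 3.40% in microglia-like cells, from 54.4%, 24.1%, 18.5% and 10.1% before thinning. Gabra3 and Gabrd were each in 2.87% of thinned GABAergic cells (11.7% and 7.43% before), and in at most 0.859% and 0.231% of thinned pyramidal and granule cells. Gabrb2 did not exceed 0.336% in any thinned neuron class.

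Gabrb1 and Gabra4 were found at neuronal levels in astrocyte-like and several other non-neuronal cells. Astrocyte-like cells, present in testable number only from DIV5, held 130.4 and 175 CPM of Gabrb1 in DIV5 replicates 1 and 2 and 175 and 207 CPM at DIV7, above the pyramidal values of the same libraries in each case. Gabra4 stood there at 38.1, 48.3, 28.3 and 47.4 CPM in the same order. Gabra2 stood at 8.61, 26.1, 5.14 and 52.1 CPM, higher in replicate 2 of both days, and Gabra5 at 11.1, 3.45, 8.74 and 2.54 CPM, higher in replicate 1. Cluster 26 held 55.1% of the astrocyte-like cells of DIV5 replicate 1 and 92.1% of those of replicate 2, and 20.96% and 17.8% at DIV7. The part of cluster makeup in these replicate differences was not tested.

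Against the glutamatergic (granule and pyramidal) sums of the same 4 libraries, all 5 members tested differed, where 71.5% of genes did. Gabrb1 was higher in astrocyte-like cells by 0.72 ± 0.12 on the log2 scale (edgeR with library as block, adjusted p = 1.48e-04) and Gabra4 by 0.76 ± 0.17 (0.00109). Gabra2, Gabra5 and Gabra3 were lower, with differences of -3.63 ± 0.30, -4.56 ± 0.27 and -2.25 ± 0.53 (adjusted p of 0.00168 or lower). Microglia-like cells of all libraries held 1.38 to 26.4 CPM of Gabra2, highest at DIV1, against 5.14 to 52.1 in astrocyte-like cells. Gabrb1 in microglia-like cells was 7.76 to 20.3 CPM, and astrocyte-like cells exceeded it by 10.2 to 18.8 times in their own libraries.

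Oligodendrocyte lineage-like cells held Gabrb1 at 16.2 to 26.5 CPM and Gabra2 at 10.1 to 32.4 CPM over 6 libraries. Their Gabra4, at 12.6 to 33.4 CPM, overlapped the pyramidal range. Gabra3, at 1.01 to 8.82 CPM, was next to the GABAergic class there, and the 2 ranges overlapped. Several clusters left without a name because no marker list reached its threshold were nearer to astrocytes: unnamed cluster 24, led by Rgs5 and Padi2, held 83.7 to 168 CPM of Gabrb1 and 30.4 to 62.7 CPM of Gabra4, and unnamed cluster 25 held 83.1 to 168 and 29.3 to 40.9 CPM. Choroid plexus-like cells held 56.3 to 194 CPM of Gabrb1 and 14.2 to 64.4 CPM of Gabra4.

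**Figure D4:**
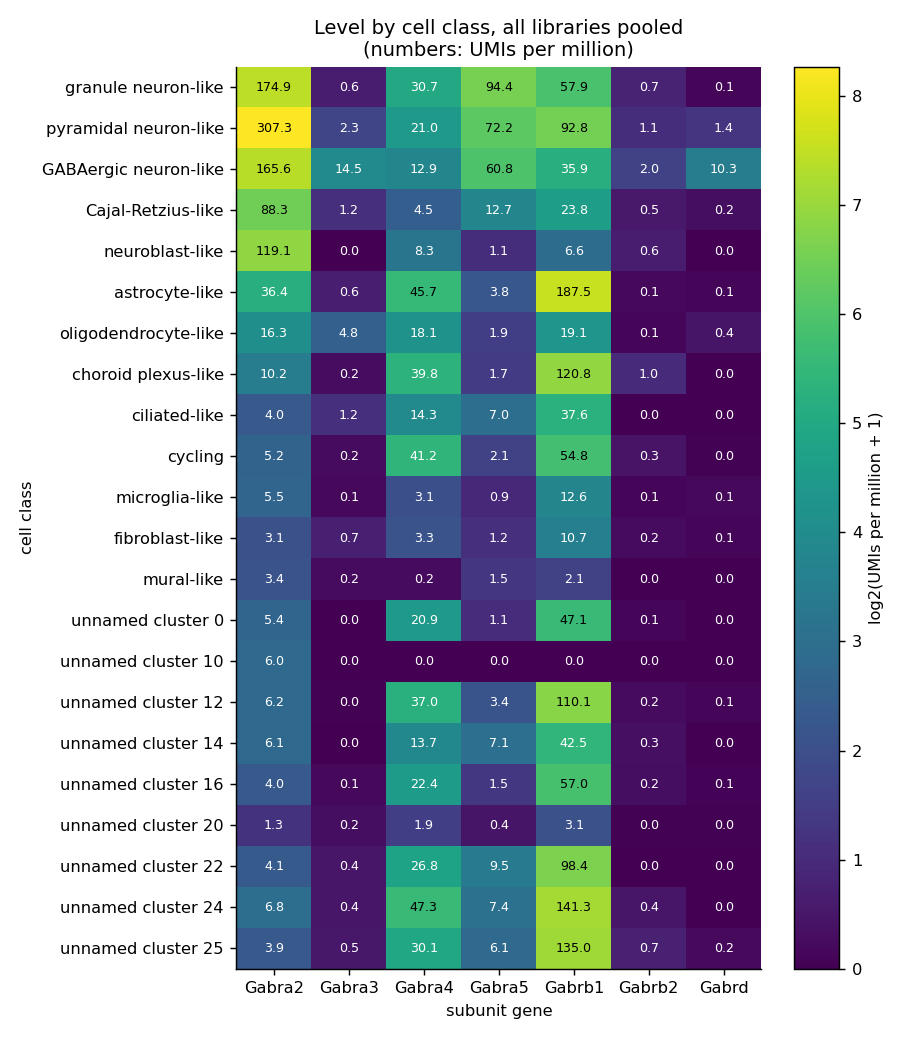
Levels of the members by cell class as a heat map, with all libraries of a class pooled. Colour gives the level on a log scale, and the printed numbers are CPM. Gabra2 and Gabra5 peak in the neuron classes, while pooled Gabrb1 is 187.5 CPM in astrocyte-like cells and 121 CPM in choroid plexus-like cells.

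Pooled over libraries, the 22 classes ordered differently for each member. For Gabra2 the order was pyramidal (307 CPM), granule (175), GABAergic (166), neuroblast-like (119) and Cajal-Retzius-like cells (88.3), then astrocyte-like cells (36.4). The ranges over libraries of neighbours in this order overlapped, from 154 to 416 CPM in pyramidal, 73.3 to 276 in granule and 45.7 to 289 in GABAergic cells. For Gabra5 it was granule (94.4), pyramidal (72.2) and GABAergic cells (60.8), whose ranges overlapped too, and no other class was above 12.7 CPM. For Gabrb1 it was astrocyte-like cells (187.5), unnamed clusters 24 and 25 (141 and 135), choroid plexus-like cells (121), unnamed clusters 12 and 22 (110.1 and 98.4), pyramidal (92.8) and granule cells (57.9), again with overlapping neighbours. For Gabra4 unnamed cluster 24 (47.3), astrocyte-like (45.7), cycling (41.2) and choroid plexus-like cells (39.8) came before granule (30.7) and pyramidal cells (21.0), and their ranges overlapped. Pooling gives libraries with more UMIs in a class more weight. By the median over libraries cycling cells came first for Gabra4 (54.9 CPM), before unnamed cluster 24 (47.8) and astrocyte-like cells (42.7), and for Gabrb1 pyramidal cells (113) passed unnamed cluster 22 (109).

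Across the 22 classes the levels of Gabra4 and Gabrb1 ran in parallel, with Pearson r = 0.940 on the log scale and Spearman rho = 0.931. Among 6294 genes Gabra4 was the most similar to Gabrb1, and Gabrb1 ranked 3 for Gabra4. Over the 19 classes with at least 5 CPM of Gabrb1 the value was 0.857. Without the granule, pyramidal and GABAergic classes it was 0.866 over the remaining 16, which still included Cajal-Retzius-like and neuroblast-like cells. The ratio of Gabrb1 to Gabra4 nonetheless varied from 0.80 to 5.32 between those classes. Gabra2, on the same chromosome, had other values: its r was 0.19 with Gabra4 (rank 2734) and 0.18 with Gabrb1 (rank 2785). Within a class, over the 7 library sums, r of Gabra4 with Gabrb1 was 0.859 in granule, 0.46 in pyramidal and 0.42 in GABAergic cells. These are descriptions over classes that share libraries and depth, and no test is given. The Gabra4 start and the first of 2 annotated Gabrb1 starts lie 387 bases apart, as the windows printed above show. The other Gabrb1 start is at 71699932, and which of them these cells used was not tested.

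**Figure D5:**
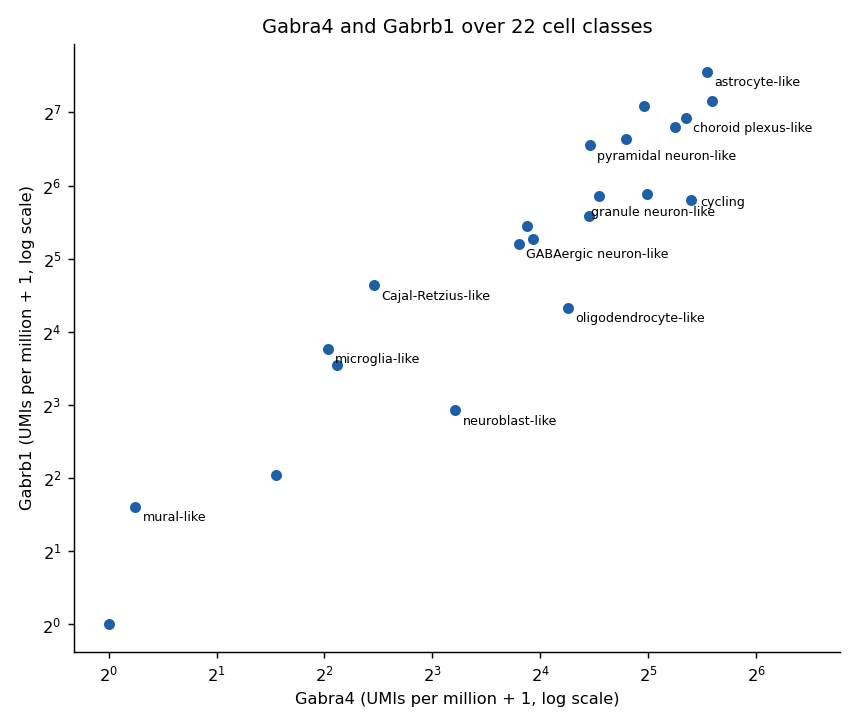
Gabra4 against Gabrb1 in CPM (both axes log scale), 1 point per cell class pooled over libraries. The 22 points rise together (r = 0.940), with astrocyte-like cells at the top (187.5 CPM of Gabrb1 and 45.7 CPM of Gabra4) and microglia-like cells low (12.6 and 3.1 CPM).

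A list of 53 other genes of GABA signalling, from synthesis to chloride transport and the inhibitory postsynapse, gave the setting for these changes. It was chosen with earlier results of these data known, so its counts and medians beside those of all genes are descriptions only. From DIV3 to DIV7, 6 of 34 tested rose and 0 fell in granule cells, 8 of 41 rose and 0 fell in pyramidal cells and 4 of 39 rose and 0 fell in GABAergic cells, where 3.56%, 6.47% and 1.77% of all genes rose and 0.889%, 4.8% and 0.653% fell. The counts of genes that rose rested on few libraries. In the order granule, pyramidal and GABAergic, without DIV3 replicate 1 they were 1, 4 and 1, without DIV7 replicate 1 they were 1, 1 and 0, without DIV7 replicate 2 they were 3, 1 and 0, and without DIV3 replicate 2 they were 6, 15 and 6, with 2 pyramidal and 1 GABAergic genes that fell. Without either DIV5 library the pyramidal count was 5. With the replicate block they were 8, 12 (and 2 that fell) and 6, with DESeq2 2, 7 and 2, under the stricter cell filter 0 and 1 in granule and pyramidal cells, and with the marker gate 0, 3 and 5 (and 2 that fell). Of these 18 changes, pyramidal Slc12a5 kept its call under every alternative run, and each of the others lost it without at least 1 of the DIV7 libraries. The list's median log2 change was 0.35, 0.41 and 0.43, against -0.04, -0.02 and -0.02 over all genes tested.

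Slc12a5, the chloride extruder KCC2, and Gabbr2, a subunit of the GABA-B receptor, rose in all 3 classes. Slc12a5 changed by 2.59 ± 0.55 in granule, 3.35 ± 0.34 in pyramidal and 2.18 ± 0.51 in GABAergic cells (edgeR, adjusted p of 0.00695, 2.76e-04 and 0.0290). Some of its counts were low. The granule sum of DIV7 replicate 2 held 2 UMIs (9.94 CPM), below both DIV5 libraries (17.1 and 24.7 CPM), and the GABAergic sum of DIV3 replicate 1 held 3 UMIs. Gabbr2 in granule cells stood at 39.8 CPM at DIV1, 28.1 and 44.0 at DIV3, then 64.1 and 66.8 at DIV5 and 73.3 and 84.5 at DIV7, and every DIV5 and DIV7 library was above the earlier ones. Its log2 change was 1.22 ± 0.31 there, 0.82 ± 0.21 in pyramidal and 1.203 ± 0.308 in GABAergic cells.

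Iqsec3, a gephyrin-binding protein of inhibitory synapses, rose in both glutamatergic classes, in granule cells from 7.31 and 4.49 CPM at DIV3 to 28.7 and 29.8 CPM at DIV7 (2.23 ± 0.45, adjusted p = 0.00445) and in pyramidal cells by 1.63 ± 0.31 (0.00957). Slc6a11, the GABA transporter GAT-3, rose by 1.60 ± 0.36 in granule and 0.96 ± 0.24 in pyramidal cells. It is known best from astrocytes. In replicates 1 and 2 of DIV7 it stood at 48.1 and 34.8 CPM in the granule and 139 and 113 CPM in the pyramidal sums, against 7.38 to 26.7 CPM in the astrocyte-like sums. Gad1 (1.76 ± 0.43) and the glycine receptor subunit Glra2 (1.01 ± 0.28) also rose in granule cells. Pyramidal cells in addition gained Trak2 (1.34 ± 0.29), which carries cargo along microtubules, Glrb (1.23 ± 0.24), the glycine receptor beta subunit, Abat (1.28 ± 0.34), which breaks down GABA, and Dmd (0.97 ± 0.26), dystrophin. GABAergic cells gained Gad2 (1.23 ± 0.28), whose level went from 293 and 214 CPM at DIV3 to 538 and 568 CPM at DIV7.

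The genes whose levels were most like each member's over the 21 sums of 3 neuron classes in 7 libraries, among 5883 genes and by Pearson r of log levels, were these. For Gabra2 they were Fsd1l (0.869), Bcl11a (0.847) and Dyrk2 (0.845). Gabra5 was most like Ppp3ca (0.860), the calcineurin catalytic subunit, then Josd1 (0.839) and Ahcyl2 (0.836). Gabra4 was most like Hecw1 (0.892), the ankyrin Ank3 (0.890) and Dusp3 (0.885), and Gabrb1 most like Nrn1 (0.929), Msra (0.928) and Atp2b1 (0.922). For Gabra3 the nearest was Gad2 (0.931), with Wls (0.929) and Vstm2a (0.928), and for Gabrd it was Extl2 (0.912), with Fgf12 (0.895) and Cend1 (0.891). Gabrb2, at 1.15 CPM, had Lin7a (0.828), Sod2 (0.804) and Cox20 (0.792). The sums share libraries and cell classes, so these values describe the pattern and carry no test.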

How the data were processed

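The files were the deposited matrices of UMI counts per gene and cell barcode, 1 per library, made with Cell Ranger 4.0.0 per the submitters' processing notes, which name genome build mm9. Whether the counting used strand, and any filtering before deposit, are not given in the sources used here. The counts were read as deposited, and no row was without a gene name. CPM, the UMIs of a gene per 1e+06 UMIs of its class and library, was computed here from total counts.

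Barcodes under 500 genes or over 10% mitochondrial UMIs were left out. Cells were clustered in scanpy 1.11.5 (2000 variable genes, without 19 Gabr genes, 30 principal components, Leiden resolution 1, 28 clusters) and clusters were called from marker lists. Scrublet marked 137 barcodes (0.475%), too few to have worked, so doublets were kept, and removing the 981 top scores was an alternative. UMI counts were summed per class and library (at least 20 cells) and tested with edgeR 4.0.16 (TMM, filterByExpr, robust quasi-likelihood fit over all libraries of the class, with a day factor or a slope), Benjamini-Hochberg adjusted over all genes, threshold 0.05. Class contrasts had library as a block. Members too low for this were compared by an exact sign-flip test of CPM, alpha shares against day by exact permutation of libraries. Same-numbered replicates deviated together over genes (granule r 0.123 to 0.338, pyramidal 0.1003 to 0.310, GABAergic 0.130 to 0.279), so a fit over DIV3 to DIV7 with the replicate number as block is given where it changes a call. On simulated pyramidal counts of 13174 genes the test recovered 85.6% of 4-fold and 39% of 2-fold changes, with 4 false calls among the unchanged genes. The simulation gave every gene the same spread between libraries and had no replicate effect. Its rates therefore do not measure the test on genes that vary more, or in the shallower classes.

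The members and the gene lists were chosen with earlier results of these data known. Named list genes are those past the threshold from DIV3 to DIV7, and like genes the 3 with the highest r. Alternatives were DESeq2 1.42.0, total-count scaling, filters, leaving out libraries, a marker gate and removal of top Scrublet scores, besides fits on only the days compared. Intervals and floors cover counting error only. RefSeq promoter windows on GRCm38.p6 matched 6 of 7 members by symbol (not Gabrd), and no coordinates were converted from the files. A result for 1 gene of the GABA signalling list is not reported here.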

Additional observations from a re-analysis of the deposited data

Results flagged for a closer look

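In 6 cases the change per day of a member differed between 2 neuron classes by a test of the difference itself (edgeR quasi-likelihood interaction, Benjamini-Hochberg adjusted, log2 units per day, added after the slopes were seen). For Gabra5 the granule slope exceeded the pyramidal slope by 0.23 (adjusted p = 0.00639), and the GABAergic slope differed from the granule slope by -0.58 (0.00154) and from the pyramidal slope by -0.34 (0.00377). For Gabrb1 the GABAergic slope differed from the granule slope by -0.33 (0.0245) and from the pyramidal slope by -0.32 (0.00474). For Gabra2 it differed from the pyramidal slope by -0.20 (0.0210). Each of the 6 missed the threshold without the single DIV1 library.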

How the results depend on the processing

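With 1 or 2 libraries a day, counts of called members moved by 1 gene under many settings, and the cause was not tested for any of them. In granule cells the DIV3-to-DIV5 comparison (119 genes called in all) had 1 called member with total-count scaling or DESeq2 (99 and 51 genes) and 0 under the stricter cell filter (1000 genes, 5% mitochondrial) or the marker gate (17 and 0 genes), and DIV1 to DIV3 had 1, Gabra5, with total-count scaling, no low-count filter, the stricter filter or top Scrublet scores removed. In pyramidal cells DIV3 to DIV7 (1486 genes) had 2 without a low-count filter (2468) and 0 under the stricter filter or the gate (71 and 633), and the slope (2780) had 1 under the stricter filter (604) and 3 with DESeq2 (2981). In GABAergic cells the gate gave 1 from DIV5 to DIV7, 2 from DIV1 to DIV3 and 1 for the slope, no low-count filter gave 1 from DIV1 to DIV3 and 2 for the slope, and removal of top Scrublet scores gave 1 for the slope. Over all genes the gate called 54, 641 and 297 in these 3, in place of 2, 8 and 737, and no low-count filter called 80 and 1118.

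With the replicate block, DIV3 to DIV7 had 2 called members in granule and 2 in pyramidal cells, and besides the calls given with the results the replicate block changed no other member's call. GABAergic Gabra5, never called, changed sign from DIV3 to DIV7 with total-count scaling (-0.0747) and in a fit of only both days (-0.00693), and in slope with the replicate block (0.0148) and the gate (0.0171).

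Between classes, no low-count filter gave 6 members for granule against pyramidal (6063 of 20297 genes called, in place of 5221 of 10491) and 5 for GABAergic against granule (3836 of 18107, in place of 2775 of 7970). The stricter filter gave 1 for each GABAergic contrast (1630 of 7187 genes against granule, 1281 of 8219 against pyramidal) and 3 for astrocyte-like cells (5368 of 9557), and the gate gave 1 for GABAergic against granule (1710 of 8159). With the gate Gabra5 turned to -0.25 (granule against pyramidal) and 0.13 (GABAergic against granule), and Gabra2 to 0.15. Slope differences had 1 member with DESeq2 (GABAergic against granule, 112 genes called in place of 292), and GABAergic against pyramidal had 2 with DESeq2 and 1 with the gate (330 and 1029 genes in place of 570). Without top Scrublet scores the shares against day had r of -0.89 (granule Gabra2), 0.90 (granule Gabra5, both adjusted p = 0.0667) and 0.79 (GABAergic Gabra3, 0.0963). Thinning lowered the shares of cells with a UMI to 37.1% (Gabra2), 20.3% (Gabra5) and 12.9% (Gabrb1) in granule, 56.2%, 16.1% and 21.2% in pyramidal and 30.03%, 13.8% and 6.27% in GABAergic cells.

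Leaving out 1 library at a time gave 0 to 3 called members for granule DIV3 to DIV5, 0 to 1 for granule DIV1 to DIV3, 0 to 2 for pyramidal DIV3 to DIV7, 0 to 1 for pyramidal DIV3 to DIV5, 1 to 3 for the pyramidal and 0 to 1 for the GABAergic slope. Slope differences had 0 to 1 (granule against pyramidal), 0 to 2 (GABAergic against granule) and 0 to 3 (GABAergic against pyramidal). GABAergic Gabra5 ranged from -0.31 to 0.26 from DIV3 to DIV7 and from -0.117 to 0.0116 in slope. The r with day ranged from -0.95 to -0.79 (granule Gabra2), 0.82 to 0.95 (granule Gabra5), 0.80 to 0.99 (GABAergic Gabra3) and -0.14 to 0.53 (GABAergic Gabra5). Granule Gabra5 from DIV3 to DIV7 kept its call in all 7. The stricter filter gave no GABAergic DIV3-to-DIV7 value, the gate no astrocyte contrast, and a replicate block was not possible from DIV1. Depth limits Gabra3, Gabrb2 and Gabrd most, which had a few UMIs a library.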
